A study of Rattus norvegicus with 5 samples.

Results

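The 10 genes described here are immediate early genes of the rat: the AP-1 subunits Fos, Fosb, Jun and Junb, the zinc finger factors Egr1 and Klf6, the orphan nuclear receptors Nr4a1 and Nr4a2, the growth regulator Myc and the phosphatase Dusp1. They were chosen by name, and a probe stood for a gene when the RefSeq accession that the array gives for it belongs to that gene. All 10 had a probe, 11 probes in all, among 15442 genes with a named probe. Where a gene had several probes the brightest was used, which concerned Nr4a2 alone. The members passed the filter on dim probes, 10 of 10, and each was well above background on all 5 arrays, so that 0 of their values are bounds and 0 of their spots were saturated.

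Tumours were xenografts of the rat glioma line C6-L in BALB/c nu/nu nude mice, a strain that lacks a thymus and so most T cells but keeps natural killer and myeloid cells, with a host age of 6 weeks in the labels. The groups were 3 metastatic lung nodules taken 6 weeks after γ-irradiation, 1 irradiated primary tumour taken at the same time, and 1 primary tumour that was not irradiated, taken 6 weeks after the xenograft was made. RNA was hybridised with Cy3 on 1-colour Agilent rat arrays, 1 array per sample. Whether the nodules grew in different mice is not stated in the labels, so that a p-value here reflects nothing but the variation among these 3 nodules, which may be technical. No radiation dose is labelled either.

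Each array held 58717 gene spots, of which 69.8 to 73.5% were well above background. Nodules correlated with each other at 0.985 to 0.992 over 30363 probes, with the irradiated primary at 0.975 to 0.981 and with the non-irradiated primary at 0.97 to 0.976. Of the glioma and glial markers, 8 of 10 passed the filter, the intermediate filament Vim and the proteoglycan Cspg4 among them, while the astrocyte filament Gfap and the oligodendrocyte factor Olig2 did not. Limma called Tnc lower in the nodules against the irradiated and Nes lower against the non-irradiated primary. It called Gpm6a higher against both primaries and called no other of these markers. The Gpm6a probe was not well above background in either primary, and it entered the test only through the nodules, where it was high. Its calls came from the measured levels, dim in both primaries, so that the size of its differences is uncertain. Skeletal muscle markers (11 of 12 measured) had summed signals of 5.03, 5.81 and 5.78 in nodules 1, 2 and 3, against 159 in the irradiated and 36.1 in the non-irradiated primary, in multiples of the 75th percentile signal of each array. Skeletal muscle marker signal was thus higher in both primaries than in any nodule, and all 11 measured markers fell against the irradiated primary. Heart markers (5 of 6 measured) summed to 4.52, 2.13 and 43.2 in nodules 1, 2 and 3. Their sums were 4.53 in the irradiated and 5.38 in the non-irradiated primary. Erythroid markers (4 of 5 measured) summed to 563, 478 and 313 in the nodules, against 106 in the irradiated and 39 in the non-irradiated primary. Alveolar and airway markers (5 of 8 measured) summed to 43.9, 14.5 and 0.31 in nodules 1, 2 and 3, against 0.354 in the irradiated and 0.832 in the non-irradiated primary. In bulk tissue fewer cells of a type and less RNA per cell cannot be told apart, and how far the rat probes also bind RNA of the mouse host was not tested. The part of other cell types in the values below was not tested, and the row on the slide and the tissue cannot be told apart, since the nodules filled a row of the slide and the primaries the other.

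Immediate early genes are transcribed soon after a stimulus, without new protein being made first. Growth factors, serum and cell stress act through the MAP kinases on SRF with its ELK partners, which bind the CArG box, and through CREB on the cyclic AMP response element (CRE). The first products are mostly transcription factors: FOS and JUN proteins pair as AP-1, EGR1 binds GC-rich sites, and NR4A receptors act without a known natural ligand. DUSP1 closes the loop by dephosphorylating the MAP kinases, and MYC, a later member of the class, drives growth and ribosome production. In glioma and other tumours the class is read as a sign of growth factor and stress signalling.

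Promoters are shown for Dusp1, Klf6 and Nr4a2, which passed a test below, and for Egr1 and Nr4a1, which did not, as examples of the CRE and CArG letters through which the class is known to be induced. They come from RefSeq, build GRCr8, and run 5′ to 3′ from 250 bases before to 50 bases after the start given there, which for Nr4a1 and Nr4a2 lies inside the span of the gene. Promoters were matched for 7 of 10 members; Fos, Jun and Myc were not matched. Capitals mark CArG boxes, CRE letters (TGACGTCA, or the short form TGACG), EGR sites (GCGNGGGCG), TATA boxes (TATAAA), AP-1 sites (TGANTCA) and NR4A sites (AAAGGTCA) on either strand.
Dusp1, chr10:17184603-17184902, plus strand: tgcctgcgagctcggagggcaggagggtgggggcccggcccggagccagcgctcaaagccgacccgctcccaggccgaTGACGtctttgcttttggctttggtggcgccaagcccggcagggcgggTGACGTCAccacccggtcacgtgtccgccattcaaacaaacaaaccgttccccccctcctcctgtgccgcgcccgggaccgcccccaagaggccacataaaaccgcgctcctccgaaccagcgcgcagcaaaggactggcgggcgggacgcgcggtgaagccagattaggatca
Egr1, chr18:26736828-26737127, plus strand: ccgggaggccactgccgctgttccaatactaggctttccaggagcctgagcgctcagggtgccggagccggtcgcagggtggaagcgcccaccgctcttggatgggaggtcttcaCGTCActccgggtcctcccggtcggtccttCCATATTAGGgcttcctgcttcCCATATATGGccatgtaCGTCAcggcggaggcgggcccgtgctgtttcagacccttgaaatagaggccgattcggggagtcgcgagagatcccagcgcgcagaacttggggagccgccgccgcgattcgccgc
Klf6, chr17:69458429-69458728, minus strand: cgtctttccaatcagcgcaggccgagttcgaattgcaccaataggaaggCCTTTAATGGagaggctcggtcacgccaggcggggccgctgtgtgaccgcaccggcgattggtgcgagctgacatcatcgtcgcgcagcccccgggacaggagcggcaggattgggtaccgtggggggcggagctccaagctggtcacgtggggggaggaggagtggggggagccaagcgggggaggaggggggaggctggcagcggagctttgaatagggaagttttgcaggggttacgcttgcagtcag
Nr4a1, chr7:134259888-134260187, plus strand: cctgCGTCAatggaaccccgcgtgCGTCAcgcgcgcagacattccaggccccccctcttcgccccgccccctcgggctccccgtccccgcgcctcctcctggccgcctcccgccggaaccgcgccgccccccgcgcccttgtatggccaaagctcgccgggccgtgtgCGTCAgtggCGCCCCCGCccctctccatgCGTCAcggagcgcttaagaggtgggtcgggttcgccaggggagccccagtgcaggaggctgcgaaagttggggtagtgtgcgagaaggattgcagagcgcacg
Nr4a2, chr3:62104838-62105137, minus strand: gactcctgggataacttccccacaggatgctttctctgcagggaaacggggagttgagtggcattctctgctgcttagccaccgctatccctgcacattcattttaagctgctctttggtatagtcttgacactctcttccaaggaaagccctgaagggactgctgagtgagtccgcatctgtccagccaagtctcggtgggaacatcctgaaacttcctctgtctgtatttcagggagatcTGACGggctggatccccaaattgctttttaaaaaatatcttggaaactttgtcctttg

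The Dusp1 window held a full CRE from -124 to -117 and a further short form from -172 to -168, counted from the start site. A full CRE stood in 1.83% of the 33469 promoters of the same length, and the short form TGACG, which the full site contains on both strands, in 21.2%. Egr1 held CArG boxes from -105 to -96 and from -83 to -74, and short CRE forms from -135 to -131 and from -66 to -62. Klf6 held 1 CArG box, from -201 to -192, and CArG boxes stood in 1.64% of all promoters. Nr4a1 held short CRE forms at 4 places and an EGR site from -73 to -65, a motif found in 4.98% of all promoters. Nr4a2 held 1 short CRE form, from -8 to -4. The windows of Fosb and Junb were matched but are not shown. Fosb held no CArG box and no CRE in full or short form, and Junb held 1 short form. Of the 7 member windows, 2 held a CArG box, 1 a full CRE and 5 the short form. AP-1 and NR4A sites were in 0 of 7 member windows, against 7.33% and 1.43% of all promoters. A match describes letters only, and no match says only that the letters are not in this window.

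Against the irradiated primary Nr4a2 and Klf6 rose, Myc fell and 7 of 10 did not pass the test. Against the non-irradiated primary Fos, Nr4a2 and Dusp1 rose, Myc fell and 6 of 10 did not pass. The first background to set beside these counts is the share of all 18913 features tested: limma called 0.909% higher and 2.81% lower against the irradiated primary (3.72% either way), where 2 and 1 of 10 members were called. Against the non-irradiated primary it called 9.72% higher and 8.85% lower (18.6% either way), where 3 and 1 of 10 members were called. Over the 10 members the median log2 difference was -0.06 against the irradiated primary, beside 0.03 over all features, and 0.46 against the non-irradiated primary, beside 0.04 over all features. Both comparisons share the 3 nodules and are not independent.

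**Figure D1:**
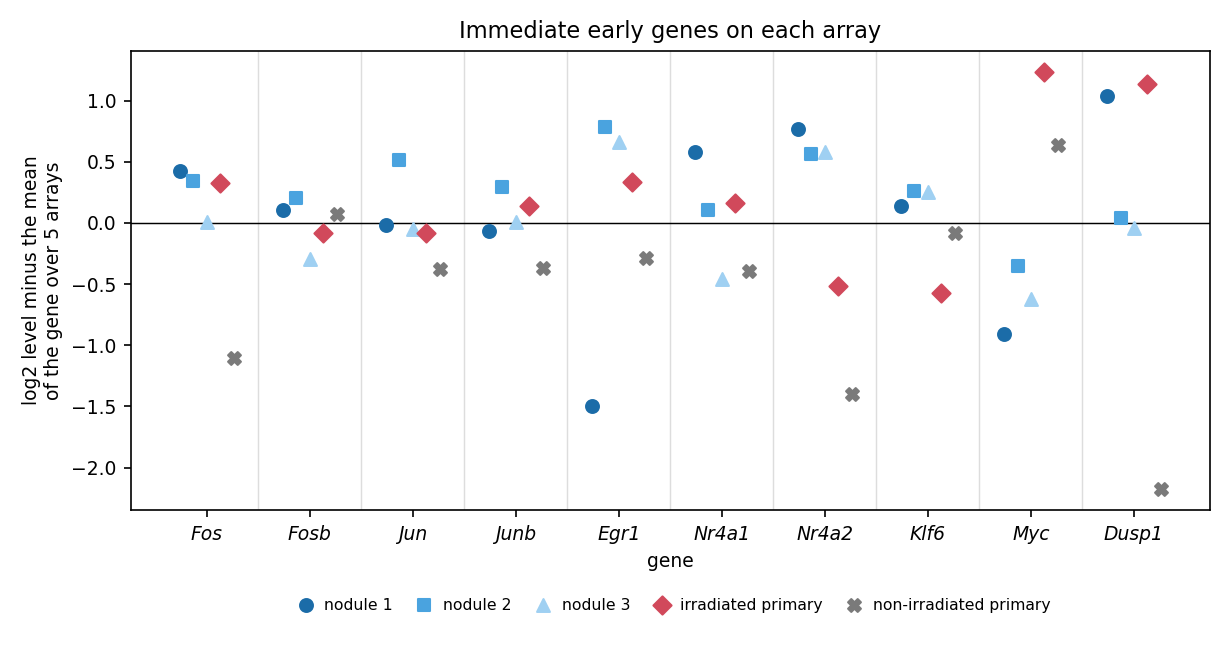
Log2 level of each immediate early gene on each array, minus the mean of that gene over the 5 arrays, with 1 marker per array. Nr4a2 is lowest in both primaries and Myc in the 3 nodules, Fos and Dusp1 are lowest in the non-irradiated primary, and Egr1 is lowest in nodule 1.

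All levels below are log2 signals relative to the 75th percentile of the array, so that 0 is that percentile, and they compare arrays for 1 gene and never 2 genes. Differences are nodules minus primary with their SE from limma, in which the spread comes from the 3 nodules and the lone primary is assumed to vary like them, and a call is a Benjamini-Hochberg adjusted p under 0.05 over all features.

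Of the FOS subunits of AP-1, which bind DNA as partners of a JUN protein, Fos passed the test against the non-irradiated primary and Fosb in neither comparison. Fos had levels of -1.51, -1.59 and -1.92 in nodules 1, 2 and 3, -1.61 in the irradiated primary and -3.04 in the non-irradiated primary. The nodules lay on both sides of the irradiated primary and all above the non-irradiated one, the lowest of the 5 arrays. Fos rose 2.57-fold against the non-irradiated primary (log2 difference 1.36, SE 0.23, limma adjusted p = 0.0256). The log2 difference from the irradiated primary was -0.07 (95% interval -0.67 to 0.53, limma adjusted p = 0.893). Fosb, a relative of Fos, stood at -1.51, -1.41 and -1.91 in the nodules, -1.70 in the irradiated and -1.54 in the non-irradiated primary. Both primaries lay within the range of the nodules for Fosb. Its differences were 0.09 (95% interval -0.57 to 0.74) against the irradiated and -0.07 (95% interval -0.72 to 0.59) against the non-irradiated primary, and neither passed.

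The JUN subunits, which can bind DNA as pairs of their own, did not pass the test in either comparison. Jun stood at 2.16, 2.68 and 2.12 in nodules 1, 2 and 3, at 2.09 in the irradiated and at 1.80 in the non-irradiated primary. Every nodule lay above both primaries, nodule 3 by a small margin. The log2 differences of Jun were 0.24 (SE 0.26, limma adjusted p = 0.654) against the irradiated and 0.52 (SE 0.26, limma adjusted p = 0.218) against the non-irradiated primary. Junb, known to restrain JUN activity, stood at 4.32, 4.68 and 4.40 in the nodules, against 4.52 in the irradiated and 4.02 in the non-irradiated primary. The non-irradiated primary was again lowest and the irradiated one lay among the nodules. Junb differed by -0.06 (95% interval -0.53 to 0.41) from the irradiated and by 0.45 (95% interval -0.02 to 0.91, limma adjusted p = 0.147) from the non-irradiated primary.

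Egr1, the zinc finger factor whose promoter window holds 2 CArG boxes, differed most among the nodules of the 10 members and passed the test in neither comparison. Its levels were -1.16 in nodule 1, 1.12 in nodule 2 and 1.00 in nodule 3, with 0.67 in the irradiated and 0.05 in the non-irradiated primary. Nodule 1 was the lowest of all arrays and nodules 2 and 3 the highest, a 4.83-fold range over the nodules. The paired spots of the Egr1 probe differed with an SD of at most 0.0442 within an array, so the gap between nodules was far larger than the spread between spots. A range this large over the nodules was reached by 1.92% of all features, and a range of at least 2-fold, which Egr1, Nr4a1 and Dusp1 had, by 9.22%. Nodules 1 and 2 differed by at least 2-fold in 1 of 10 members (5.57% of all features), nodules 1 and 3 in 3 (7.38%), and nodules 2 and 3 in 0 (2.61%). The log2 differences were -0.35 (95% interval -2.87 to 2.17) against the irradiated and 0.27 (95% interval -2.25 to 2.79) against the non-irradiated primary, at limma adjusted p-values of 0.867 and 0.864. Without nodule 1, Egr1 lay above the non-irradiated primary by 1.01 (limma adjusted p = 0.00259) and above the irradiated one by 0.39 (limma adjusted p = 0.0996). In that setting limma called 33.9% and 16.9% of all features in these comparisons. Nodule 1 was also the nodule with the highest summed alveolar and airway signal given above, whose part in this was not tested.

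Of the NR4A receptors Nr4a2 passed the test in both comparisons and Nr4a1 in neither. Nr4a2 (Nurr1), known for its role in dopamine neurons, had levels of 1.18, 0.98 and 0.99 in nodules 1, 2 and 3, -0.10 in the irradiated and -0.99 in the non-irradiated primary. The 3 nodules lay close together and above both primaries, which did not overlap with them. It rose 2.23-fold against the irradiated (log2 difference 1.16, SE 0.15, limma adjusted p = 0.0349) and 4.11-fold against the non-irradiated primary (2.04, SE 0.15, limma adjusted p = 0.00914), higher in 3 of 3 nodules in both. These values rest on a probe with 1 spot per array, as do those of Junb, so that no spread between spots is known. The second Nr4a2 probe, with 2 spots per array, gave log2 differences of 0.98 and 2.08. Among all features 8.6% and 4.57% differed by at least as much in the same comparisons. The groups stood in the order of the erythroid marker sums given above, of which 1 of 4 markers rose against the irradiated and 4 of 4 against the non-irradiated primary, and their part in the result was not tested.

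Nr4a1 (Nur77), which is induced in many cell types and acts in myeloid cells and in apoptosis, showed no such separation. It stood at 3.67, 3.20 and 2.64 in nodules 1, 2 and 3, at 3.26 in the irradiated and at 2.70 in the non-irradiated primary. Nodule 1 was highest of all arrays and nodule 3 lowest, with both primaries between them. Its probe was printed in 10 spots per array, and the 8 to 10 usable spots had an SD of 0.0236 to 0.0662, far under the nodule SD of 0.52. The log2 differences were -0.09 (SE 0.40, limma adjusted p = 0.922) and 0.47 (SE 0.40, limma adjusted p = 0.45) against the irradiated and non-irradiated primary.

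**Figure D2:**
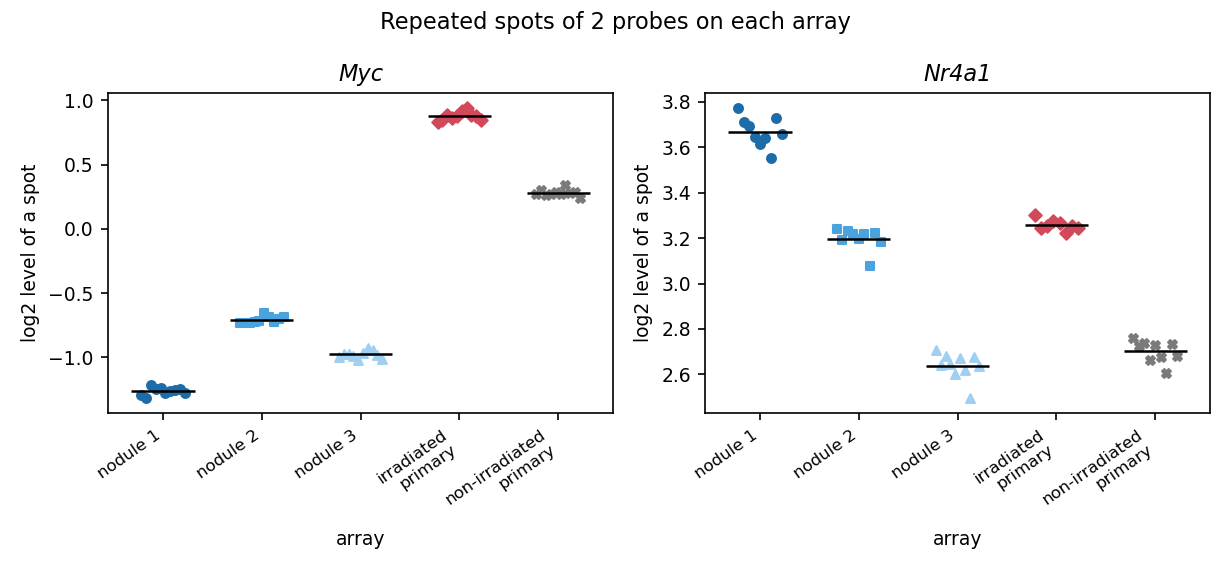
Log2 level of every usable spot of the Myc and Nr4a1 probes (up to 10 per array), by array, with lines at the mean of the spots of an array. Spots of an array lie close together while the arrays stand apart, with Myc lowest in the 3 nodules and Nr4a1 spread from 2.64 to 3.67 over the nodules.

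Klf6, a KLF factor that binds GC-rich promoters and is known as a growth suppressor, varied least of the members among the nodules. Its levels were 2.15, 2.27 and 2.27 in the nodules, 1.44 in the irradiated and 1.93 in the non-irradiated primary. All nodules lay above both primaries, and here the irradiated primary was the lower of the primaries. Klf6 rose 1.73-fold against the irradiated primary (log2 difference 0.79, SE 0.12, limma adjusted p = 0.0458, higher in 3 of 3 nodules). Against the non-irradiated primary the difference of 0.30 did not pass (95% interval -0.01 to 0.62, limma adjusted p = 0.144). The nodule SD of 0.0677 for Klf6 was small: 87.7% of all features had a range over the nodules at least as wide. The call was lost with quantile scaling (limma adjusted p = 0.0512), scaling to the array median (0.0894), no filter (0.0521), the deposited matrix (0.0511) and no intensity trend (0.101).

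Myc, which pairs with MAX and drives growth and ribosome genes, was the 1 member below both primaries in every nodule. It stood at -1.26, -0.71 and -0.98 in nodules 1, 2 and 3, against 0.88 in the irradiated and 0.28 in the non-irradiated primary. The nodules did not overlap with either primary, and the 10 spots per array had an SD of at most 0.0332. Myc fell by 1.86 on the log2 scale against the irradiated primary (SE 0.24, limma adjusted p = 0.0365) and fell by 1.26 against the non-irradiated primary (SE 0.24, limma adjusted p = 0.033). That is 3.63-fold and 2.40-fold lower in the nodules, and 4.15% and 11.9% of all features differed by at least as much. Both calls were lost with scaling to the array median (limma adjusted p = 0.0626 and 0.055) and without an intensity trend (0.069 and 0.0548). The skeletal muscle marker sum moved with Myc, lowest in the nodules and highest in the irradiated primary, and its part in the result was not tested.

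Dusp1, the MAP kinase phosphatase that ends the signal these genes respond to, spanned the widest range of the members. It stood at -0.05, -1.05 and -1.13 in nodules 1, 2 and 3, at 0.04 in the irradiated and at -3.26 in the non-irradiated primary. Nodule 1 lay close to the irradiated primary and the other nodules below it, while all 3 were far above the non-irradiated primary. Dusp1 rose 5.75-fold against the non-irradiated primary (log2 difference 2.52, SE 0.47, limma adjusted p = 0.0309, higher in 3 of 3 nodules). With normexp background correction the difference was 1.90 (limma adjusted p = 0.0357). Against the irradiated primary its difference of -0.78 did not pass (95% interval -2.01 to 0.45, limma adjusted p = 0.406). Without nodule 1, Dusp1 fell by 1.13 against the irradiated primary (limma adjusted p = 0.0073), a setting in which limma called 16.9% of all features. Macrophage markers (6 of 6 measured) summed to 6.52, 5.13 and 5.27 in nodules 1, 2 and 3, against 5.85 in the irradiated and 4.77 in the non-irradiated primary, where Fos and Dusp1 were also lowest. Of these markers 3 (Csf1r, Adgre1 and Aif1) rose and 1 (Cd68) fell against the non-irradiated primary, and their part in the result was not tested.

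**Figure D3:**
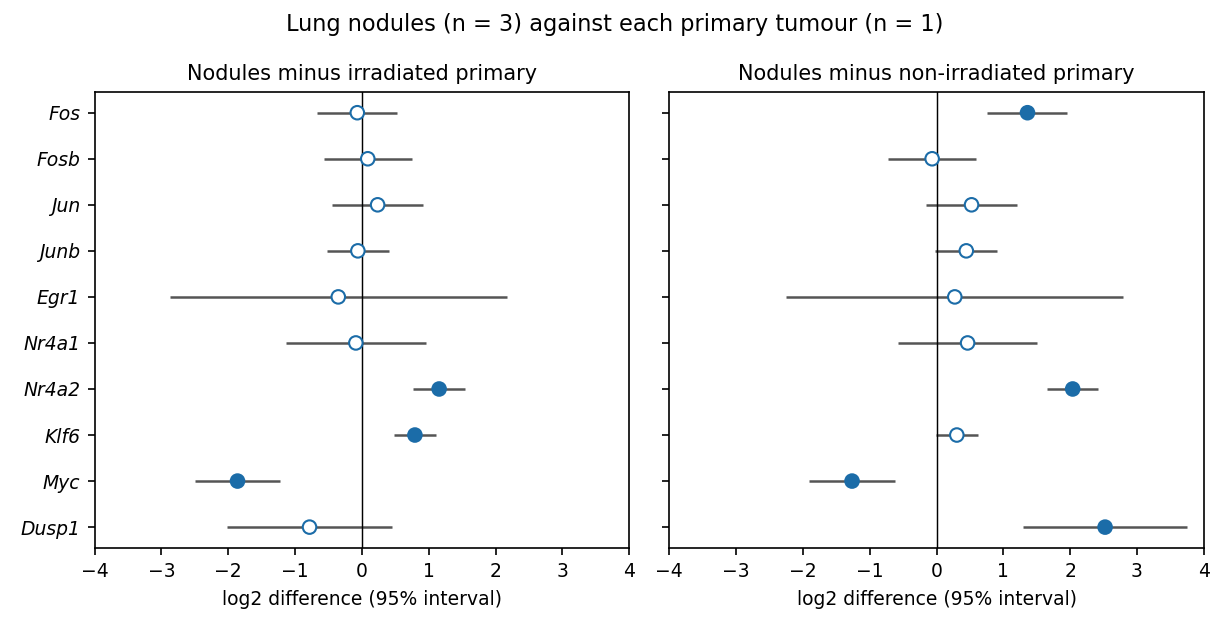
Log2 difference of the nodule mean (n = 3) from the irradiated primary (left, n = 1) and the non-irradiated primary (right, n = 1) with its 95% interval from limma, filled where the adjusted p is under 0.05. Nr4a2, Klf6 and Myc are filled on the left, Fos, Nr4a2, Myc and Dusp1 on the right, and the interval of Egr1 spans -2.87 to 2.17 on the left.

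Seen over both primaries at once, all 3 nodules were above both in Jun, Nr4a2 and Klf6 and below both in Myc. That is 3 and 1 of 10 members, beside 22.3% and 19.2% of all features. Nr4a2 was called higher and Myc lower against each primary, as were 104 and 198 of 18913 features. The calls changed with the nodules used. Without nodule 2, limma called 0 of 10 members against the irradiated primary (smallest adjusted p = 0.0884, 3 at an unadjusted p under 0.05) and 0 of 10 against the non-irradiated primary (smallest adjusted p = 0.0624, 4 unadjusted). Without nodule 3 it called 0 (smallest adjusted p = 0.0982, 3 unadjusted) and 1, Nr4a2 at adjusted p = 0.046, and without nodule 1 it called 4 and 5, beside 16.9% and 33.9% of all features.

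The primaries differed from each other in a way that could not be tested, with 1 array each. Dusp1 was 9.90-fold higher in the irradiated than in the non-irradiated primary (log2 levels 0.04 and -3.26), and Fos 2.70-fold higher (-1.61 and -3.04). These were the 2 of 10 members past 2-fold, both higher, beside 9.3% of 18442 features higher and 7.13% lower by as much (16.4% either way). The difference in Dusp1, 3.31 on the log2 scale, was matched or passed by 1.27% of features and that in Fos, 1.43, by 8.36%. Both were larger than any difference between 2 nodules for the same gene, which reached 1.08 for Dusp1 and 0.41 for Fos. The share of all features with a difference beyond every nodule pair, here and below, was not counted. Over all probes the primaries correlated at 0.979, less than the nodule pairs did (0.985 to 0.992). With normexp background correction they came to 2.55 for Dusp1 and 1.04 for Fos.

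The other members differed by less than 2-fold. Nr4a2 was higher by 0.88 and Myc by 0.60 in the irradiated primary, each more than any pair of nodules differed. Klf6 was lower there, at -0.49, also beyond its nodule pairs, the widest of which was 0.12. Junb was higher by 0.51, against 0.36 for the widest pair. For Fosb, Jun, Egr1 and Nr4a1 the primaries differed less than the widest pair of nodules did. Of the 10 members 8 were higher and 2 lower in the irradiated primary, with a median of 0.58 beside 0.02 over all features. Macrophage marker sums of 5.85 and 4.77 and skeletal muscle marker sums of 159 and 36.1 stood in the irradiated and the non-irradiated primary. Of the macrophage markers, Aif1 (0.17 and -1.89), Adgre1 (-0.25 and -1.64) and Csf1r were higher in the irradiated primary. Cd68, Cd14 and Mrc1 were lower there, by less. The part of these markers in the differences was not tested.

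**Figure D4:**
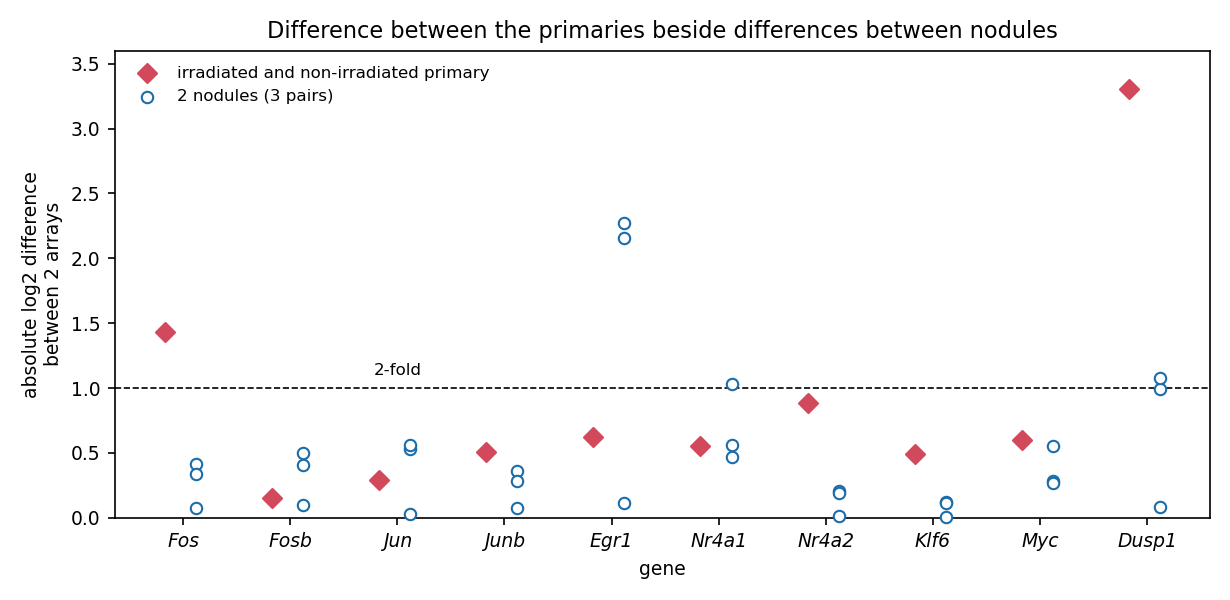
Absolute log2 difference between the irradiated and the non-irradiated primary (diamonds) beside the 3 differences between pairs of nodules (circles), for each gene, with a dashed line at 2-fold. Dusp1 and Fos lie above the line for the primaries, and Egr1 reaches 2.27 between nodules.

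Relatives of the members were taken from 7 lists chosen with earlier results of these data known. In these lists 81 of 88 genes were tested, of which 2 rose and 3 fell against the irradiated primary, and 9 rose and 6 fell against the non-irradiated primary. That is 6.17% and 18.5% of the list genes, beside 3.72% and 18.6% of all features. Of 9 other AP-1 genes, 2 fell and 7 did not pass against the irradiated primary (median -0.11). The FOS relative Fosl2 stood at -3.49, -3.01 and -3.07 in the nodules, against -1.34 in the irradiated and -0.98 in the non-irradiated primary. Every nodule lay below both, and Fosl2 fell by 1.85 (SE 0.26, limma adjusted p = 0.0401) and fell by 2.20 (SE 0.26, limma adjusted p = 0.0146). The first of these calls was lost under 5 alternatives of the processing, with limma adjusted p-values from 0.0516 to 0.0704. The stress-induced factor Atf3 was not well above background in any nodule or in the non-irradiated primary, and it entered the test only through the irradiated primary, where it was high. For a bound, the nodules were set no lower than the dimmest signal well above background on their array. On that bound Atf3 was at least 16.4-fold lower in the nodules than in the irradiated primary. The call came from the measured levels, a log2 difference of -5.16 (limma adjusted p = 0.0377), and did not test the bound. The size of that difference belongs to the scale used here: with normexp correction it was -2.05 (limma adjusted p = 0.00648). The call was lost with quantile scaling (limma adjusted p = 0.0507) and without an intensity trend (0.0574).

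Among 9 other EGR, NR4A and KLF genes tested, Klf10, a KLF factor induced early by TGF-beta, rose by 0.73 against the irradiated primary (SE 0.11, limma adjusted p = 0.0457). It stood at 3.05, 2.98 and 3.02 in the nodules, against 2.29 in the irradiated and 2.73 in the non-irradiated primary, with the irradiated primary lowest, as for Klf6. The call was lost with scaling to the array median (limma adjusted p = 0.0715), no filter (0.0526) and no intensity trend (0.106). The third NR4A receptor, Nr4a3, did not separate the groups, at -3.39, -3.30 and -3.26 in the nodules, -3.18 in the irradiated and -3.37 in the non-irradiated primary. Egr2, which acts in Schwann cells and lymphocytes, differed by -0.63 (limma adjusted p = 0.451) and -1.13 (limma adjusted p = 0.126), and neither passed. In that list 8 genes did not pass against the irradiated and 9 against the non-irradiated primary. Among 8 MAPK feedback genes tested (dual specificity phosphatases, Sprouty and Spred proteins), limma called 0 in either comparison, with medians of -0.35 and -0.53. The largest difference there, -1.47 in the RAS-ERK inhibitor gene Spred2 against the non-irradiated primary, did not pass (limma adjusted p = 0.146). At an unadjusted p under 0.05, 33 and 35 of the 81 list genes passed in the 2 comparisons (40.7% and 43.2%), beside 22% and 36.9% of all features.

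Of 15 other serum-response genes, 1 rose, 1 fell and 13 did not pass against the irradiated primary, and 2 rose, 2 fell and 11 did not pass against the non-irradiated primary. Zfp36, which speeds the decay of AU-rich mRNAs, stood at -3.17, -2.27 and -3.20 in the nodules and -3.05 in the irradiated primary, and was not well above background in the non-irradiated primary. There its measured level was -5.88, a log2 difference of 3.00 (limma adjusted p = 0.0204), in the same direction as Fos and Dusp1. With normexp correction the difference was 1.30 (limma adjusted p = 0.0429). The matricellular protein gene Ccn1 stood at -0.58, -0.00081 and -0.37 in the nodules, against 2.04 in the irradiated and 0.76 in the non-irradiated primary. It fell by 2.36 (SE 0.25, limma adjusted p = 0.0236) and fell by 1.07 (SE 0.25, limma adjusted p = 0.0477). The call against the non-irradiated primary was lost under 5 alternatives of the processing, with limma adjusted p-values from 0.0515 to 0.0773. The small GTPase gene Gem rose by 1.22 (limma adjusted p = 0.0458) and 1.29 (limma adjusted p = 0.019), and Ier3, an early gene that limits apoptosis, fell by 1.35 against the non-irradiated primary (limma adjusted p = 0.0328). Against the irradiated primary the difference of Ier3 was -0.82 and did not pass (limma adjusted p = 0.17). Gem lost its call against the irradiated primary with no filter (limma adjusted p = 0.0605) and no intensity trend (0.0629), and Ier3 lost its call with scaling to the array median (0.0588) and no trend (0.0567).

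Upstream kinases and factors gave 0 calls of 15 against the irradiated primary, and 3 rose and 1 fell against the non-irradiated primary. Among those that rose, the MEK2 gene Map2k2 differed by 0.59 (limma adjusted p = 0.0336) and Creb1, which binds the CRE, by 0.84 (limma adjusted p = 0.0497). The JNK2 gene Mapk9 fell by 0.84 (limma adjusted p = 0.0302). Creb1 lost its call under 5 alternatives of the processing (limma adjusted p from 0.0515 to 0.0711) and Map2k2 without an intensity trend (0.0741). In the MYC network, 0 of 7 genes passed against the irradiated primary. Against the non-irradiated primary the MAX partners Mxd1 and Mnt fell by 1.43 (limma adjusted p = 0.0188) and fell by 0.71 (limma adjusted p = 0.0274), and Mxi1 rose by 0.53 (limma adjusted p = 0.0428). These 3 proteins compete with MYC for MAX. Mxi1 lost its call under 6 alternatives of the processing (limma adjusted p from 0.0506 to 0.0877), Mxd1 with the mean of its probes (0.117) and Mnt without an intensity trend (0.0584).

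Of 18 MYC targets tested, 0 passed against the irradiated primary (median -0.05). Against the non-irradiated primary 3 rose and 0 fell (median 0.27), beside 9.72% of all features called higher and 8.85% lower. The nucleolar proteins Nop56 and Nolc1 rose by 0.53 (limma adjusted p = 0.0431) and 0.57 (limma adjusted p = 0.04), and the cell cycle kinase gene Cdk4 rose by 0.87 (limma adjusted p = 0.0207). Nop56 and Nolc1 lost their calls with scaling to the array median (limma adjusted p = 0.0907 and 0.0859), no filter (0.0575 and 0.0534) and no intensity trend (0.0922 and 0.0843). The cyclin gene Ccnd2 differed by -1.20 from the irradiated primary (limma adjusted p = 0.262). Nolc1 stood at 4.33, 4.43 and 4.47 in the nodules, against 3.99 in the irradiated and 3.84 in the non-irradiated primary, while Myc was higher in both primaries. Ccnd2 lay the other way, at -0.57, -1.34 and -1.87 in the nodules, against -0.06 in the irradiated and -0.36 in the non-irradiated primary. Targets that did not pass and are not named here also lay on both sides, some with every nodule below both primaries, as for Myc. Without nodule 2 or without nodule 3, limma called 0 of the 81 list genes in either comparison (21 to 28 at an unadjusted p under 0.05, or 25.9 to 34.6%, beside 14.2 to 32.1% of all features). Without nodule 1 it called 22 and 29 (27.2% and 35.8%), beside 16.9% and 33.9% of all features.

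**Figure D5:**
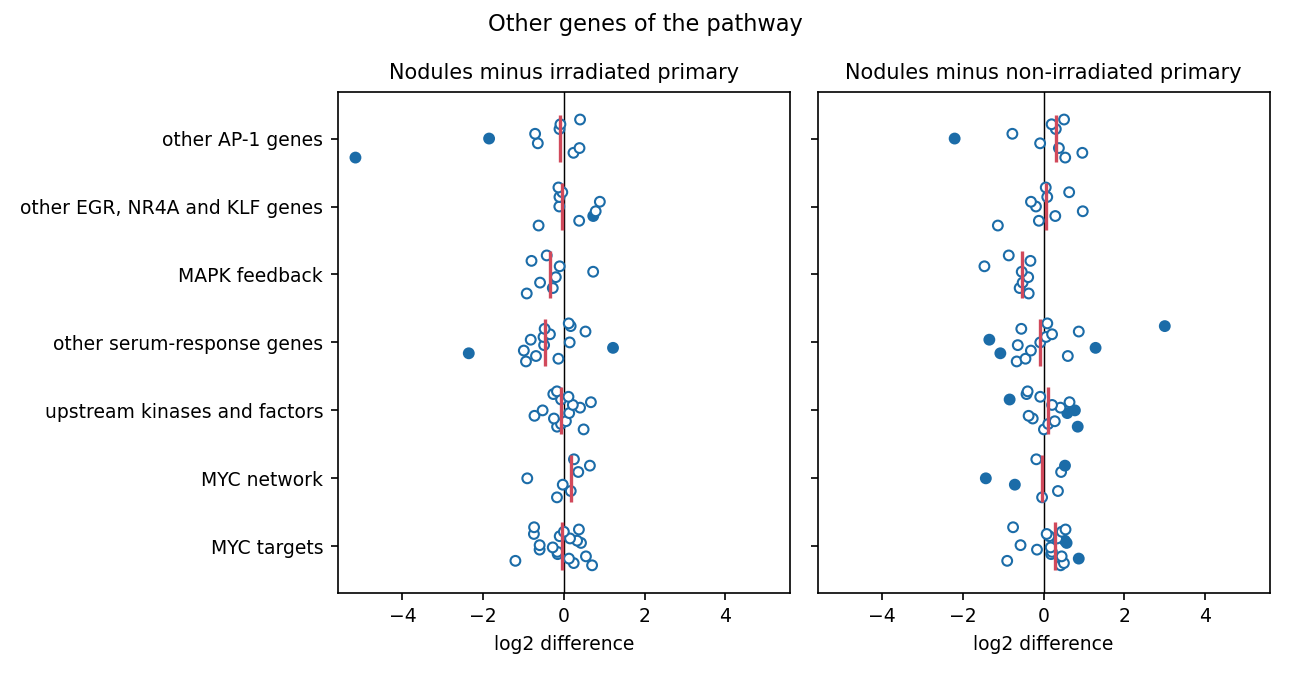
Log2 difference of the nodule mean from the irradiated primary (left) and the non-irradiated primary (right) for 81 related genes in 7 lists, 1 point per gene, filled where the adjusted p is under 0.05, with a line at the median of each list. The medians lie between -0.48 and 0.17 on the left and between -0.53 and 0.30 on the right, and Atf3, dim in the nodules, is the lowest point on the left at -5.16.

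For Fos, Egr1, Nr4a2 and Myc, the named genes with the most similar pattern were sought among 10032 other genes well above background on all arrays, as the root mean square difference of log2 levels over 5 arrays after centring each gene on its own mean. Fos was followed most closely by Stard8 (0.0856), Tlr2 (0.11) and Nrros (0.111). Tlr2, a receptor for bacterial lipoproteins, stood at -0.98, -0.97 and -1.14 in the nodules, -1.14 in the irradiated and -2.52 in the non-irradiated primary, with the lowest level on the last of these, as for Fos. No other member came as close to Fos, Junb being nearest at 0.405. Egr1 was followed by the membrane skeleton protein Add3 (0.111), Mmp24 (0.158) and Kifc2 (0.191). Add3 had -2.19 in nodule 1, 0.29 and -0.10 in nodules 2 and 3, -0.23 in the irradiated and -1.06 in the non-irradiated primary, with nodule 1 lowest as in Egr1.

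Nr4a2 was followed most closely by Slurp1 (0.0738), Zdhhc14 (0.0874) and Shd (0.0944), and its nearest member was Fos at 0.509. Slurp1 stood at 0.88, 0.70 and 0.77 in the nodules, -0.32 in the irradiated and -1.08 in the non-irradiated primary. Myc was followed by the tachykinin gene Tac3 (0.116), Tdrkh (0.144) and Tspan2 (0.16), with Fosb as nearest member at 0.837. Tac3 had -5.39, -4.52 and -4.98 in the nodules, -3.09 in the irradiated and -3.84 in the non-irradiated primary. The distances over 5 arrays are a description with no test.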

How the data were processed

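RNA of 3 lung nodules and 2 primary tumours was measured on 1-colour arrays. The deposited intensity values are spot signals from Agilent Feature Extraction 11.0, background-subtracted and detrended within each array per the file headers, and not scaled across arrays. Flags for outlier, saturated and well-above-background spots are other deposited values, 0 or 1. The authors also deposited log2 values of 18502 probes in a matrix, whose making is not given in the sources used here, and these served as an alternative. Each of its columns had a median of 9.74 and correlated at 0.9996 to 0.9999 with its own array. Its centring was not stated, but its sorted columns differed by at most 0.000749. The columns thus share the same distribution, as after quantile scaling, and the matrix is not independent of that alternative.

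Control spots (4259 per array) and outlier spots (0.603 to 0.865%) were left out, the spots of each probe were averaged as log2 signals, and the 75th percentile of each array was subtracted. Accessions named 18354 of 30367 probes (60.4%) through the RefSeq gene table. A spot set counted as well above background when over 0.5 of its usable spots were flagged so. A probe entered the test if 1 or more groups had it well above background on every array, which left 18913 features, 11104 named and 7809 unnamed. A limma 3.58.1 model of 3 group means (R 4.3.3) gave the contrasts of nodules with each primary. It used an intensity trend in eBayes, 2 residual degrees of freedom and a threshold of 0.05 on the p-value adjusted by Benjamini-Hochberg. Between the primaries a log2 difference of 1 or more was counted over 18442 features, with no test. The fit was tested on simulated data in which the primaries were drawn to vary like the nodules, so that this assumption itself was not tested. Lower bounds of folds used the lowest well-above-background level of each array, -6.46, -6.69 and -6.77 in the nodules, -6.03 in the irradiated and -6.12 in the non-irradiated primary.

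Members, gene lists and the rule for named genes were chosen with earlier results of these data known. The rule took all members, list genes past the test or with a log2 difference of at least 1 (up to 6 per list), and the 3 genes nearest to each of 4 members. A gene that the rule covers is not reported here. Alternatives changed the background correction, scaling, filter, probe choice, source of values and variance model, or left out a nodule. Those for the list genes were chosen after seeing the data. The number of arrays limits the precision.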

Additional observations from a re-analysis of the deposited data

How the results depend on the processing

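Of 10 members, 3 were called against the irradiated primary, but 1 with scaling to the array median and 0 without an intensity trend (limma, smallest adjusted p = 0.069, 3 at an unadjusted p under 0.05). Against the non-irradiated primary 4 were called, and 2 without a trend. Leaving out a nodule gave 0 to 4 and 0 to 5 members called. Over all features the 704 calls against the irradiated primary became 438 with scaling to the array median, 399 without a trend and 0 to 3232 without a nodule. The 3512 against the non-irradiated primary became 0 to 6472 without a nodule. The counts of 0 came without nodule 2, where limma had 2705 and 5008 features at an unadjusted p under 0.05. The 3030 features past 2-fold between the primaries became 1494 with normexp correction. The cause of these changes was not tested. Among single members, the direction of every called difference was kept under the alternatives run. Nr4a2 against the irradiated primary lost its call without a trend (limma adjusted p = 0.0718), and Dusp1 against the non-irradiated primary likewise (0.0515). No paired analysis was possible because each primary is a single array without a replicate number, so the groups share fewer than 2 numbers.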
